A study of Mus musculus with 36 samples.

Results

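In mouse liver DNA, 20724 windows of 500 bp with 5 to 9 CpGs lay away from gene starts and were lowly methylated. The autosomes were tiled into fixed windows on the mm9 genome, and a window was taken when it held 5 to 9 CpGs, had at least 30 counts in each animal, had a mean methylation level between 10 and 30% over the 24 animals, and lay over 2 kb from every protein-coding transcription start site. Of 1151553 tested windows with 5 to 9 CpGs, 1.80% met these conditions. They are called low-methylated distal windows here. They are CpG-poor only beside windows with 10 or more CpGs: of 4254058 autosomal windows with a CpG, 1496157 held at least 5, and the others, with 1 to 4 CpGs, were not tested. The low level was itself a condition of the choice, so it is described and not tested. Regions of this kind are often called enhancer-like, but chromatin marks and factor binding were not analysed here, and the windows are therefore defined by CpG number, methylation and distance alone.

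Whole-genome bisulfite sequencing had been carried out on bulk liver from 24 mice. C57BL/6N mice (B6) and C3H/HeN mice (C3), both inbred, served as parents. Their reciprocal hybrids were B6C3F1, from a B6 dam and a C3 sire, and C3B6F1, from a C3 dam and a B6 sire. Each of the 4 genotypes gave 3 males and 3 females, and all animals were killed at 20 weeks of age. Mating took place at 10 weeks. Each dam had therefore carried and suckled a litter by the time of sampling, whereas the F1 daughters were virgins. Dams were inbred and daughters were hybrid, so parity and hybrid genotype cannot be told apart in that comparison. Autosomal depth ran from 19.4 to 32.8 counts per CpG and animal. Bulk liver holds hepatocytes along with endothelial, stellate and immune cells, and a level of 20% can reflect the same share of alleles in every cell or a different state in some cells; these cannot be told apart here.

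Most CpGs of a mammalian genome are methylated in somatic tissue, and CpG-dense promoters are the main unmethylated exception. Away from promoters, short stretches of reduced methylation commonly mark places where sequence-specific transcription factors bind, and which stretches are low differs between cell types. In liver such elements are known for binding FOXA, HNF4A, HNF1 and C/EBP factors, and they govern hepatocyte genes such as those for plasma proteins.

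Stretches of 300 bases from 6 windows show what such DNA looks like. The first 3 differed most between the strains among those printed, the next 2 differed between sires and dams, and the last lies nearest to the start of the hepatocyte gene Alb. Each is the plus strand of mm9 read 5′ to 3′, and capitals mark the CpGs that were measured.
Fam169a (chr13:97821101-97821400): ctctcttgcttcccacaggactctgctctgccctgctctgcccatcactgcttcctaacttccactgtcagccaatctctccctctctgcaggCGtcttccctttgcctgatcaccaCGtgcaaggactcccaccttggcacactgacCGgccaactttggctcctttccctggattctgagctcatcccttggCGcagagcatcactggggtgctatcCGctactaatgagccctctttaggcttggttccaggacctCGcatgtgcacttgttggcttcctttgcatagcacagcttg
Klrb1 (chr6:128704131-128704430): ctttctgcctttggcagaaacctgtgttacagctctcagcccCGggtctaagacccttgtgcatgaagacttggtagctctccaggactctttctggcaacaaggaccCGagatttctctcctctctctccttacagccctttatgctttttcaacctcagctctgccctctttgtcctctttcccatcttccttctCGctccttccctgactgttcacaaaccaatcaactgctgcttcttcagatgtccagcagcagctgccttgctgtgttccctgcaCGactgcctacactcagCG
Dlc1 (chr8:37748102-37748401): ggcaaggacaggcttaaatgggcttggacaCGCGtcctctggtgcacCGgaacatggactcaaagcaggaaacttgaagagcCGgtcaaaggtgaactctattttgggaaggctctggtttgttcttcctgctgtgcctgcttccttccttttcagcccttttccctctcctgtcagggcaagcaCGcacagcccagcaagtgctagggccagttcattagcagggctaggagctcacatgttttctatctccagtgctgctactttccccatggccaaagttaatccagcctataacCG
Plxnc1 (chr10:94580118-94580417): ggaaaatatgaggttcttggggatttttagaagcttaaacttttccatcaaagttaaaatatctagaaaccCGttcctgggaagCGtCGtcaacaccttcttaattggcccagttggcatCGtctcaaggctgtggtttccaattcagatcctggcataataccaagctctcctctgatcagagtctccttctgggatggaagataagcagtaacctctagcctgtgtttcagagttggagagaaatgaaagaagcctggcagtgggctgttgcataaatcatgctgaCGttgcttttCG
Acss3 (chr10:106458141-106458440): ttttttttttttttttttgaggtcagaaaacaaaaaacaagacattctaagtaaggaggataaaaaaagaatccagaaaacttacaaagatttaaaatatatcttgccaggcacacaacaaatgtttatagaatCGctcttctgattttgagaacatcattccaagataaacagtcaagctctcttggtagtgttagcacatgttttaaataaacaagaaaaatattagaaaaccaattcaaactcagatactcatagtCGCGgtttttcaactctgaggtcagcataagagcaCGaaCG
Alb (chr5:90893052-90893351): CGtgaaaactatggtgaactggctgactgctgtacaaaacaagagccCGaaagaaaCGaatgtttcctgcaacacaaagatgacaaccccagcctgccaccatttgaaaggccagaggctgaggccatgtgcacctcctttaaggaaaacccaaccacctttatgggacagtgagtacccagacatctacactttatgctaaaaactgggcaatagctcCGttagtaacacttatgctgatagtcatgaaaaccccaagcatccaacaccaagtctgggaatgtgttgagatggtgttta
Each stretch holds 4 to 6 measured CpGs. Positions are counted from 1 at the 5′ end, and the B6 base is written before the C3 base. The deposited list of single-nucleotide variants (SNVs) of the strain assemblies against mm9 holds C134G and T204C in the Fam169a stretch. In the Dlc1 stretch it holds G44A and C59T. The other 4 stretches hold no listed SNV.

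Averaged over the windows, the level of an animal lay between 19.4 and 23.2%, with a mean of 20.9% ± 1.11 (SD, n = 24). B6 sires were at 22.5% ± 0.135, B6 dams at 20.6% ± 0.701, C3 sires at 19.8% ± 0.443 and C3 dams at 19.6% ± 0.332 (SD, n = 3 each). The B6 parents together averaged 21.5% and the C3 parents 19.7%, and their ranges overlapped, since the lowest B6 dam was at 19.8% and the highest C3 sire at 20.3%. Among the hybrids, B6C3F1 sons were at 20.2% ± 0.570 and daughters at 21.3% ± 0.616, and C3B6F1 sons were at 20.9% ± 0.263 and daughters at 22.4% ± 0.770. The F1 daughters averaged 21.8% and the dams 20.1%, with ranges that met between 20.9 and 21.1%. In distal windows above 70% the order of the strains was opposite, with 86.1% in B6 parents and 86.9% in C3 parents. These means are descriptions, because the level entered the choice of windows.

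**Figure D1:**
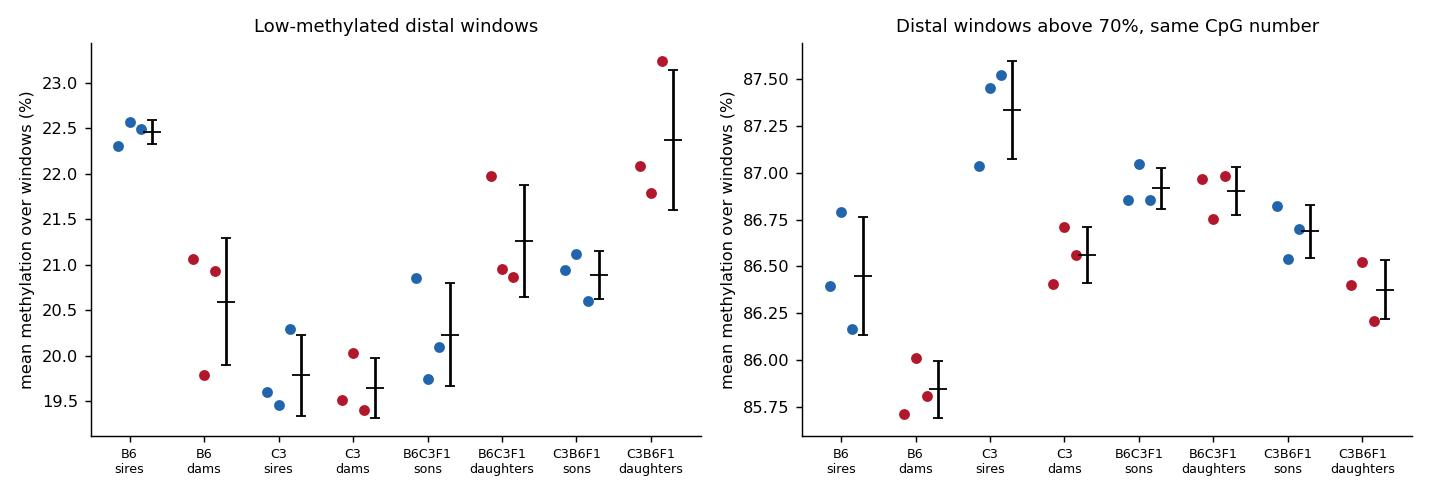
Mean methylation in percent of each animal, with males in blue and females in red, over the low-methylated distal windows (left) and over distal windows above 70% with the same CpG numbers (right); bars give the group mean and SD over 3 animals. In the left panel the B6 sires sit at 22.5%, above all 6 C3 parents, which lie between 19.4 and 20.3%.

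Windows with 5 CpGs made up the largest class, 5682 of the 20724, and windows with 9 CpGs the smallest, 2677. The share of tested windows that were low rose with CpG number, from 1.44% at 5 CpGs through 1.93% at 7 to 2.51% at 9. Levels filled the interval, with 8967 windows between 10 and 20% and 11757 between 20 and 30%. At its edges the 5 lowest windows were at 10.0031 to 10.0117% and the 5 nearest left out were at 9.99147 to 9.99692%, while the 5 highest were at 29.9968 to 29.9997% and the 5 nearest left out were at 30.0021 to 30.0054%. Fewer distal windows lay under the interval, 3437 in all.

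Single CpGs inside the windows were mostly low too. Of 136971 CpGs with at least 100 counts over all animals, 59.7% were between 10 and 30%, 22.4% were under 10%, 10.4% were between 30 and 50%, 4.34% were between 50 and 70% and 3.18% were over 70%. The median SD among the CpGs of a window was 12.6 points. In 3453 windows (16.7%) every such CpG was between 10 and 30%, and in 3870 windows (18.7%) at least 1 CpG was above 70%. In the Alb window single CpGs ran from 18.7 to 29.4%.

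Methylation rose away from the windows. The 500 bp of a window were chosen to be low, so a dip of about that width follows from the choice. It does not measure how long a low stretch was. Windows chosen to be high gave the reverse, with distal windows above 70% at 86.8% in the centre and 76.5% at 2950 bp. Mean methylation of single CpGs was 19.9% at the window centre, 45.9% at 450 bp upstream on the chromosome and 60.7% at 1050 bp. The flanks stayed below other windows with 5 to 9 CpGs, at 59.3% against 74.3% at 2950 bp. Low windows with the same CpG numbers but within 2 kb of a start site were at 20.9% in the centre and 15.6% at 1050 bp, where CpGs stood at 3.00 per 100 bp against 1.15 around the distal windows. Of the distal low windows, 12.3% had a window of at least 10 CpGs under 10% within 2 kb, against 74.7% of those near a start and 4.61% of the other windows with 5 to 9 CpGs. Most therefore did not border a measured unmethylated dense window. Adjacent windows with at least 5 CpGs had a median of 49.2%, and 30.3% of them were above 70%.

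**Figure D2:**
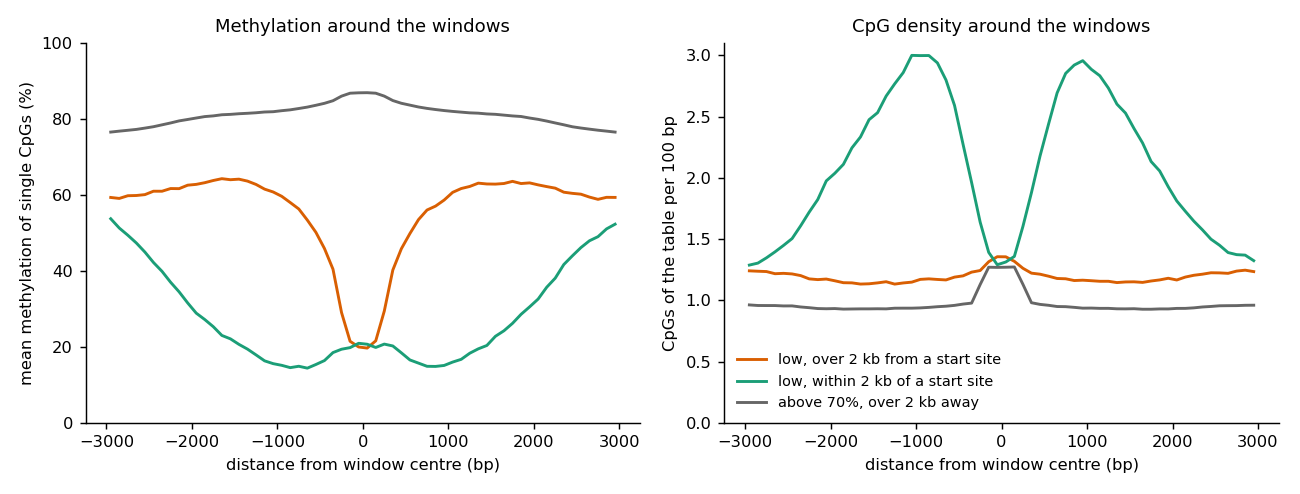
Mean methylation of single CpGs in percent (left) and CpGs per 100 bp (right) against distance from the window centre in bp, for distal low windows, for low windows within 2 kb of a start site and for distal windows above 70%. The distal low windows dip to 19.9% at the centre and reach 60.7% at 1050 bp, while those near a start stay at 15.6% there.

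Most low windows stood alone, but only windows that met the same CpG, level and distance limits could join a run. Of the adjacent windows with at least 5 CpGs, 25.1% were at 10 to 30%. Beside the other windows with 5 to 9 CpGs this share was 2.63%. The low windows formed 18623 runs, of which 16781 were a single window, 1626 were pairs, 183 held 3 windows, 24 held 4, 8 held 5 and 1 held 6. The run of 6 lay in an intron of a transcript at chr7:56778501-56781500, 110719 bp from the start of Dbx1, a homeobox factor of the developing nervous system. Its 44 CpGs gave window means from 13.7 to 23.0%, and its level was 20.2% in B6, 16.9% in C3 and 20.2% in F1 animals. Another run of 5 lay at chr9:69602001-69604500, 4247 bp from Foxb1, a forkhead factor of the brain, with window means from 12.9 to 26.4%. A run of 5 at chr11:79526001-79528500 lay 51672 bp from Rab11fip4, which encodes an effector of the recycling GTPase Rab11.

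Of the windows, 46.5% were intergenic, 44.5% intronic and 9.0% overlapped an exon. The other windows with 5 to 9 CpGs were intergenic in 47.8%, intronic in 40.8% and exonic in 11.3%. The nearest protein-coding start lay at a median of 21410 bp, against 34265 bp for the other windows, although the latter include those within 2 kb. Over 100 kb from any start lay 13.7% of the low windows and 25.5% of the others. Median GC content was 47.0% against 45.0%. Shares by chromosome ran from 1.53% on chromosome 14 to 2.34% on chromosome 19.

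Short sequence motifs of liver factors were more frequent in the low windows than in other windows of the same length, read on both strands. The HNF4A letters CAAAGTCCA stood in 1.98% of the low windows, in 0.662% of all tested windows with 5 to 9 CpGs and in 0.656% of the other windows at the same CpG number and GC content, a ratio of 3.02 to the latter. HNF4A is a nuclear receptor that keeps up the hepatocyte programme. The HNF1 letters GTTAATNAT, read by a hepatocyte homeodomain factor, stood in 2.76% of the low windows. They stood in 1.35% of all tested windows with 5 to 9 CpGs, with a matched ratio of 2.57. For ONECUT, TATTGATT was found in 3.39% against 1.89%, with a matched ratio of 2.28. For FOXA, the forkhead pioneer factors, TGTTTAC was found in 12.0% against 7.0%, with a matched ratio of 1.90.

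The remaining motifs differed less. TTGCNNAA of the C/EBP factors was in 25.8%, against 20.4% of all tested windows with 5 to 9 CpGs. CNCTAGNGG of CTCF was in 4.55% against 2.85%, and the nuclear receptor hexamer AGGTCA in 37.7% against 27.9%. In this order their matched ratios were 1.37, 1.42 and 1.29. Matched ratios were 1.22 for the GATA letters AGATAA (28.0% against 25.6%), 1.11 for the AP-1 letters TGANTCA (15.9% against 14.6%) and 1.08 for the STAT letters TTCNNNGAA (16.4% against 16.3%). They were 1.08 for the E-box CACGTG (9.18% against 8.24%) and 1.02 for the ETS letters CCGGAAG (2.63% against 2.24%). In the printed stretches, the E-box lies at positions 116 to 121 of the Fam169a stretch, the C/EBP letters at 271 to 278 of the Plxnc1 stretch, and AGGTCA at 20 to 25 and 278 to 283 of the Acss3 stretch. A match is a string of letters and not a measured binding site, and some motifs can overlap on the same bases. Across distal windows the FOXA share was 10.9% at levels under 10%, 12.0% between 10 and 30%, 11% between 30 and 50% and 6.00% above 90%, so it was not particular to the chosen interval.

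Genes of liver function had many low windows around them. A window was assigned to the gene with the nearest protein-coding start, which does not show on which gene it acts. Counting windows within 50 kb of their nearest start site, 2.43 of every 100 tested distal windows were low over all protein-coding genes, and 6844 of 21281 genes (32.2%) had at least 1. For a list of hepatocyte product genes the figure was 14.4 per 100, with a low window at 39 of 42 genes. Alb, which encodes serum albumin, had 11 among 39 tested windows, Hpd, an enzyme of tyrosine breakdown, 11 among 29, and Ahsg, which encodes the plasma protein fetuin-A, 10 among 25. Hepatocyte transcription factor genes had 9.67 per 100, at 30 of 35 genes. Rxra, the shared partner of many nuclear receptors, had 20 among 97, Ppara, the receptor that drives fatty acid oxidation, 15 among 66, and Foxa2, 12 among 45.

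Regulators of lipid metabolism had 6.17 per 100, at 27 of 29 genes, with 12 windows at the cholesterol exporter Abca1 and 10 at the HDL receptor Scarb1. Growth hormone and prolactin signalling genes had 5.75 per 100, at 18 of 22 genes, among them Irs2, an adaptor of the insulin receptor, with 7 windows, Stat5b with 7 and Igf1 with 6. Circadian clock genes had 4.84 per 100, at 15 of 20, led by Rora with 12 windows. Per 100 windows, genes of other liver cells were at or below the figure for all genes. They were at 2.25 for Kupffer cells and macrophages, 1.56 for endothelium and 1.48 for lymphocytes. The stellate and fibroblast list was the exception at 5.36 per 100, and of its 36 windows 13 lay at Hand2 and 9 at Tcf21, which are mesenchymal transcription factors. Genes of cell types foreign to liver gave 2.68 for neurons, where Rbfox3 alone held 10 of 28 windows, and 0.782 for skeletal muscle. The share of genes with at least 1 low window ordered these lists differently against the 32.2% of all genes. It was above that at 14 of 19 neuron genes (73.7%), 11 of 20 endothelial (55%), 10 of 20 stellate (50%) and 7 of 17 Kupffer genes (41.2%). Below it were 6 of 20 lymphocyte genes (30%) and 3 of 20 muscle genes (15%).

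**Figure D3:**
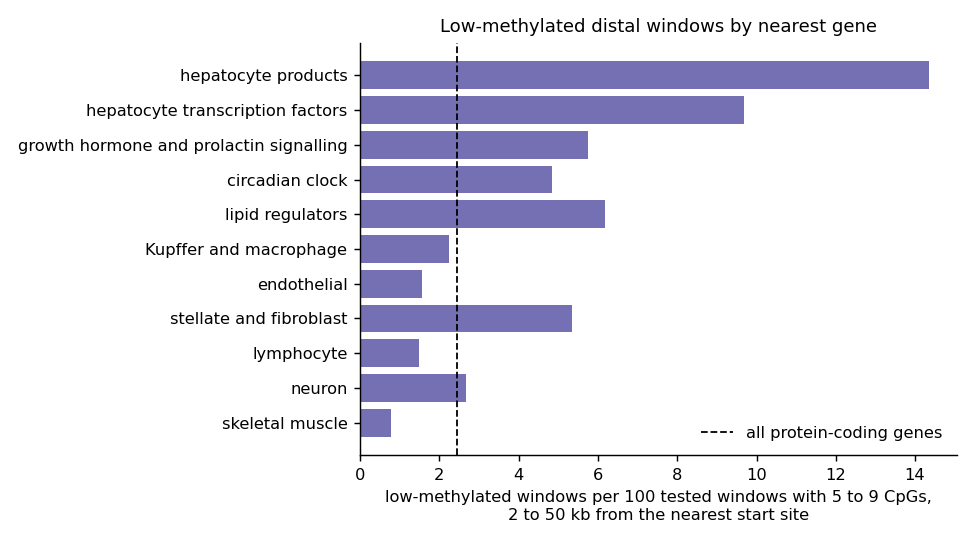
Low-methylated windows per 100 tested distal windows within 50 kb of the nearest start site, 1 bar for each list of genes, with the value for all protein-coding genes as a dashed line at 2.43. Hepatocyte products reach 14.4 and hepatocyte transcription factors 9.67, while skeletal muscle is at 0.782.

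At any distance, the windows were nearest to 7835 genes, of which 3468 had 1 window and 212 had at least 10. Rab11fip4 led with 31, followed by Rreb1, a zinc finger repressor, with 29, Rxra with 28 and Sox2, a stem cell factor, with 26. Per tested window the order was different: 17.4% of the windows nearest to Rxra were low, 16.2% of those nearest to Mtss1, which binds actin, 13.7% at Rab11fip4, 11.8% at Foxa2, but 4.28% at Sox2 and 3.06% at Arid1b, a chromatin remodelling subunit. The 22 windows nearest to Foxa2 lay between 10.8 and 29.9%, with a median of 19.1%.

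Measured levels of animals of the same group spread more at these windows than at most others of the same CpG numbers. The SD between animals was pooled within the 8 groups and leaves out differences between groups. Its median was 4.07 points, where counting alone gave 3.02, against 2.80 points and 2.60 from counting in the other windows with 5 to 9 CpGs. Low windows within 2 kb of a start site were close, at 3.89 points and 2.99 from counting. Counts were alike, with a median of 182 per window and animal against 179. Group differences were tested with limma, with the log2 of methylated over unmethylated counts as the response, fitted to all 1456902 tested windows, with Benjamini-Hochberg adjustment over all of them. A window was called when the adjusted p was below 0.05 and the groups differed by at least 20 percentage points. In practice the 20 points decided these calls: of the low windows, 182 passed 20 points between the strains and all 182 passed the adjusted p, and 14 of 14 did so between sires and dams. Since a level cannot fall under 0, a window with a mean near 10% has little room for such a difference. Counts by the adjusted p alone are therefore given beside each call.

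Strain made the most difference. Between the B6 and C3 parents, 6 animals each, 182 low windows were called (0.878%), where 0.494% of all tested windows were called and 0.450% of the other windows with 5 to 9 CpGs. B6 was higher in 101 and C3 in 81, with backgrounds of 0.245 and 0.249%. The ranges of the parents did not overlap in 99 and 79 of these, or 98.0 and 97.5%, near the 96.1 and 96.2% of called windows over all tested windows. The called share of low windows was above that of other windows at each CpG number, from 0.669 against 0.419% at 5 CpGs to 1.12 against 0.526% at 9. By the adjusted p alone 2815 low windows (13.6%) passed, against 6.63% of all tested windows and 6.24% of the others. Among these B6 was higher in 2016 and C3 in 799, whereas the background ran the other way, at 2.34 and 4.29%. The median difference, B6 minus C3, was 2.01 points in the low windows and -0.73 points in the others. Low windows within 2 kb of a start site leaned the same way, with 562 higher in B6, 361 in C3 and a median of 1.03 points. The lean was thus not particular to the distal windows. When the level was instead taken over the F1 animals, which the strain comparison did not use, 195 windows were called, 83 with B6 higher and 112 with C3 higher, so the direction of the larger class depends on how the low level was averaged; by the adjusted p alone it did not, with 1940 and 853.

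The called share was not at its peak in this interval. Over distal windows it was 0.0291% at levels under 10%, 0.878% between 10 and 30%, 3.49% between 30 and 50%, 2.21% between 50 and 70% and 0.584% between 70 and 80%. Without the 20 points the shares were 10.0, 13.6, 16.9, 13.2 and 8.12%. Low windows within 2 kb of a start site had 46 calls, or 0.709%, and 923 (14.2%) of them passed the adjusted p alone, so the order of these 2 classes depended on the 20 points.

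**Figure D4:**
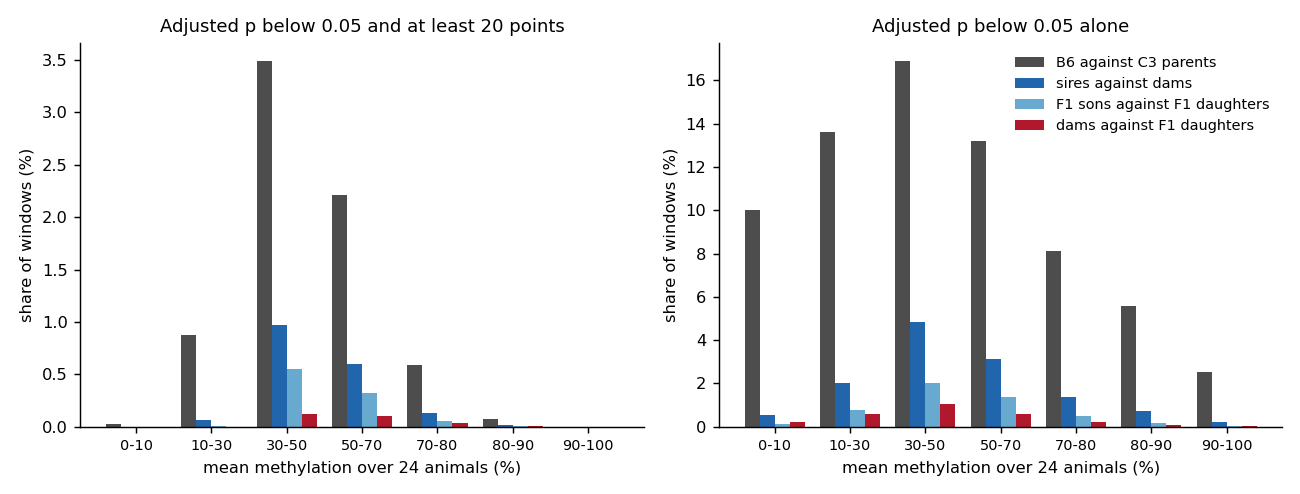
Share of distal windows with 5 to 9 CpGs that differed, in percent, by mean methylation over 24 animals in percent, for 4 comparisons given by colour; the left panel requires at least 20 points and the right panel takes the adjusted p alone. Strain bars peak between 30 and 50%, at 3.49 and 16.9%, and the interval of 10 to 30% stands at 0.878 and 13.6%.

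Strain-called windows often held a listed SNV, and listed positions were not required to differ between B6 and C3. A listed SNV lay in 123 of the 182 (67.6%), in 45.4% of those passing the adjusted p alone, and in 21.0% of the low windows that did not pass. In other words 2.44% of low windows with an SNV and 0.376% of those without were called, and for the other windows these shares were 1.40 and 0.171%. Read depth moved with the calls too. The ratio of C3 to B6 counts had a median of 0.719 in called windows and 0.940 in windows that did not pass, and in 48 called windows (26.4%) the C3 counts were under 50% of the B6 counts. The other called windows with 5 to 9 CpGs were close to this, with a median ratio of 0.723 and 1148 of 5084 (22.6%) under 50%. Among low windows whose ratio was between 0.8 and its inverse, an alternative added after the data were seen, 71 were called (0.402%, against 0.206% of the other windows). The part of mapping to a B6-derived reference in these differences was not tested. A measured CpG coincided with a listed SNV in 13 low windows, 8 of them past the adjusted p.

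The hybrids lay between their parents. In the 101 windows with B6 higher, medians were 36.6% in B6, 26.7% in F1 and 11.5% in C3 animals, and in the 81 with C3 higher they were 13.8, 23.2 and 40.5%. The F1 mean was between the parental means in 179 of 182, and in 5069 of 5084 of the other called windows with 5 to 9 CpGs, so that this position was shared with strain-called windows in general. The 182 windows formed 178 loci nearest to 170 genes. Dlc1 had 4 and was the only gene with more than 2.

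The window with equal depth among the largest differences lay at chr13:97821001-97821500, intergenic and 15742 bp upstream of Fam169a, and held 5 SNVs. Its level in the B6 parents ran from 41.1 through a median of 48.7 to 55.1%, in the C3 parents from 3.86 through 8.28 to 9.63%, and in the F1 animals from 22.4 through 30.0 to 38.2%. The ranges of the B6 parents, the C3 parents and the pooled F1 animals did not overlap. B6 exceeded C3 by 40.9 points, a log2 ratio of 3.52 ± 0.20 (SE; limma, adjusted p = 1.72e-14), with 30.6 and 31.3 counts per CpG in the strains. All 7 CpGs were higher in B6, by 15.6 to 62.9 points.

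At chr6:128704001-128704500, an intergenic window 30937 bp upstream of Klrb1, a killer cell receptor gene of a multigene cluster, the order was reversed. B6 parents ran from 1.47 through 2.84 to 5.42%, C3 parents from 56.2 through 60.1 to 66.3% and F1 animals from 11.6 through 22.5 to 30.4%. C3 exceeded B6 without overlap, with a B6 minus C3 difference of -57.7 points and a log2 ratio of -5.49 ± 0.23 (limma, adjusted p = 9.31e-18). Depth was 34.0 counts per CpG in B6 and 17.8 in C3, and whether reads of related copies were mixed was not tested. The difference sat in 5 of the 7 CpGs; the other 2 were above in B6 by at most 1.03 points.

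The Dlc1 window at chr8:37748001-37748500 was intronic, 47608 bp downstream of the start, with 5 SNVs. It was at 3.57 to 8.13% in B6 parents, with a median of 6.39%, at 39.2 to 64.2% in C3 parents, with a median of 55.1%, and at 16.7 to 27.2% in F1 animals. B6 minus C3 was -48.2 points, with a log2 ratio of -4.13 ± 0.22 (limma, adjusted p = 3.86e-15), and depth was 38.6 against 18.9 counts per CpG. Of the 4 called windows at Dlc1 this was the only one with C3 higher. A window upstream of Aqp11, an aquaporin gene, at chr7:104897501-104898000, was at 6.71% ± 3.29 in B6 and 54.6% ± 5.65 in C3 parents (SD, n = 6; limma, adjusted p = 2.14e-14), with 33.6 and 23.3 counts per CpG.

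The largest difference of all was in an intronic window at chr14:52101501-52102000, 29863 bp downstream of the nearest start, that of Vmn2r89, a vomeronasal receptor of a large gene family. B6 parents were at 47.1 to 66.0% and C3 parents at 0 to 2.46%, a difference of 59.3 points (limma, adjusted p = 2.85e-20). It is uncertain, since C3 depth was 13.3 counts per CpG against 26.8 in B6 and reads of near-identical copies could be mixed. The window nearest to A730049H05Rik, at chr6:92737501-92738000, had no listed SNV and was at 41.1% ± 2.84 in B6 and 3.22% ± 1.18 in C3 parents (SD, n = 6), with 22.8% ± 3.86 in 12 F1 animals (limma, adjusted p = 4.51e-17 between the parents). Its depth was 25.4 counts per CpG in B6 and 18.6 in C3 parents.

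The shares of low windows near the listed genes that passed the strain adjusted p were on both sides of the 13.6% of all low windows within 50 kb of a gene. They were 11.9% of 159 windows at hepatocyte products, 8.21% of 195 at hepatocyte transcription factors, 19.1% of 94 at lipid regulators, 16.9% of 65 at growth hormone and prolactin genes and 13.6% of 44 at circadian genes. Among those that passed, B6 was higher in most. At hepatocyte products 18 windows were higher in B6 and 1 in C3, with a median B6 minus C3 difference of 4.14 points over the list. At lipid regulators the counts were 17 and 1, with a median of 3.54 points, at hepatocyte transcription factors 12 and 4, at growth hormone and prolactin genes 9 and 2, and at circadian genes 6 and 0. Over all low windows within 50 kb of a gene they were 1429 and 594, with a median of 1.94 points. The lists of other cell types had 0 to 2 windows in each direction, being 0 and 1 at Kupffer cell genes, 1 and 0 at endothelial, stellate and muscle genes, 0 and 2 at lymphocyte genes and 2 and 1 at neuron genes. The printed Alb window was at 26.7% ± 8.08 in B6 and 17.5% ± 4.42 in C3 parents (SD, n = 6; limma, adjusted p = 0.100) and was not called.

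Sires and dams, 6 animals each, differed at few low windows. Of these 14 were called (0.0676%), below the 0.104% of all tested windows and the 0.115% of the others with 5 to 9 CpGs. Dams were higher in 13 and sires in 1, with backgrounds of 0.0684 and 0.0357%, and the ranges did not overlap in 11 and 1. Over all tested windows 90.1 and 90.6% of those called in these directions did not overlap. On the adjusted p alone the share was above the background, 422 windows or 2.04% against 0.974% of all tested and 1.02% of the others. Over distal windows it was 0.553% under 10%, 4.82% at 30 to 50%, 3.14% at 50 to 70% and 1.38% at 70 to 80%. The share thus peaked above the chosen interval. Among the 422 low windows sires were higher in 262 and dams in 160, with backgrounds of 0.462 and 0.512%. Of the 14, 9 were windows with 5 CpGs. At that number the called share of low windows was above that of other windows, at 0.158 against 0.112%. It was below at each number from 6 to 9, with 0.0199 against 0.116% at 6 CpGs and 0 against 0.107% at 9. The lower called share of low windows was thus not found at every CpG number. These shares rest on 0 to 9 called low windows each.

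In the Acss3 window, intronic at chr10:106458001-106458500 beside a gene for a mitochondrial acyl-CoA synthetase, sires ran from 9.40 through a median of 16.5 to 22.6% and dams from 29.2 through 46.1 to 59.6%. Sons were at 7.69 to 26.7% and daughters at 26.1 to 38.7%. Sires and dams did not overlap, and sons and daughters met only at their edges. The sire minus dam difference was -29.2 points, a log2 ratio of -2.09 ± 0.27 (limma, adjusted p = 7.97e-06), and that of sons minus daughters was -16.4 points (adjusted p = 0.00961). All 5 CpGs were higher in dams, with sire minus dam differences from -49.5 to -8.03 points. No SNV lay in it, and depth was 33.6 counts per CpG in B6 and 31.9 in C3.

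The Plxnc1 window, intergenic at chr10:94580001-94580500 and 172789 bp from the start of this plexin gene, was the called window with sires higher. Sires ran from 30.4 through 35.0 to 39.8% and dams from 7.18 through 14.2 to 16.7%, without overlap, with a difference of 22.6 points and a log2 ratio of 1.90 ± 0.18 (limma, adjusted p = 1.04e-08). All 7 CpGs were higher in sires. Sons were at 25.4 to 41.8% and daughters at 20.3 to 26.0%, 10.9 points apart (adjusted p = 0.0370). Dams minus daughters was -9.37 points there (adjusted p = 0.00569).

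Apbb2, which encodes an adaptor of the amyloid precursor protein, was the gene nearest to a called window at chr5:66932501-66933000 that overlapped an annotated exon. Sires were at 16.2% ± 6.03 and dams at 42.2% ± 8.28 (limma, adjusted p = 6.68e-07), sons at 14.1% ± 4.85 and daughters at 32% ± 6.49 (SD, n = 6 each; adjusted p = 0.000124). In the window 12364 bp upstream of Scp2, a sterol carrier gene, at chr4:107803501-107804000, sires were at 18.1% ± 4.92 and dams at 43.8% ± 12.0 (limma, adjusted p = 0.000268). Sons and daughters, at 21.7% ± 6.28 and 32.8% ± 10.3, did not pass (adjusted p = 0.504). Depth at Scp2 was 26.7 counts per CpG in B6 and 14.9 in C3 parents.

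The other called windows, all with dams higher and named here after their values were seen, lay nearest to Alppl2, Maml3, Atp6v0d2, Yap1, Rassf3, 2410016O06Rik, Gm9726, Bcl6, Dscr3 and Pim1. Yap1 encodes the transcriptional effector of the Hippo pathway. In the intronic window nearest to it, at chr9:7987001-7987500, sires were at 14.4 to 29.8% and dams at 32.7 to 50.3%, and sons were at 11.2 to 24.2% and daughters at 34.1 to 42.8%. Bcl6 encodes a transcriptional repressor with higher expression in male than in female mouse liver. A window 95063 bp upstream of it, at chr16:24084001-24084500, was at 18.5% ± 8.93 in sires and 42.7% ± 11.5 in dams (SD, n = 6; limma, adjusted p = 6.68e-07), and it was also 16.5 points higher in B6 than in C3 parents (adjusted p = 8.06e-05).

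**Figure D5:**
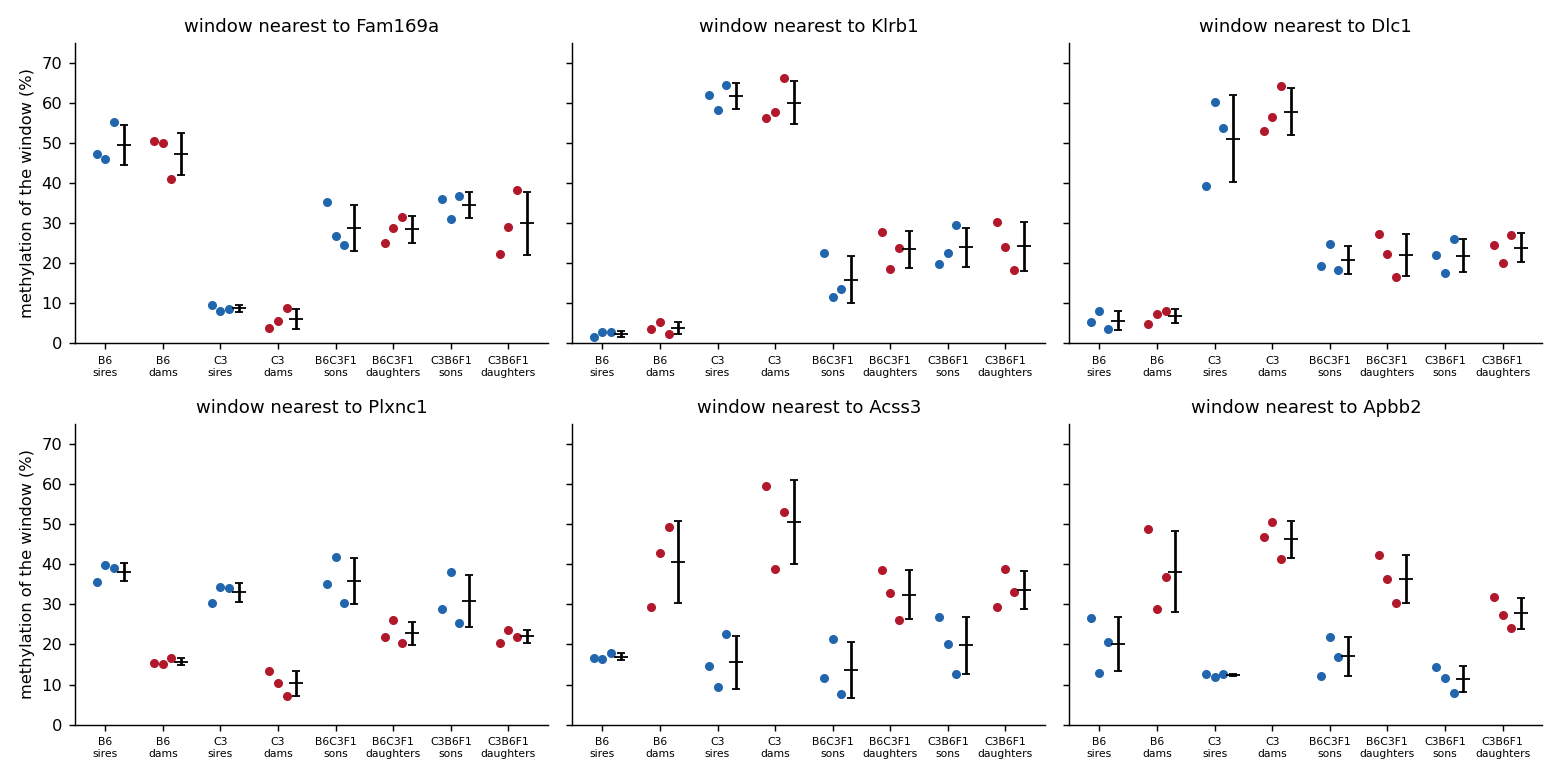
Methylation in percent of 6 windows in each of the 24 animals, with males in blue and females in red, and the group mean and SD over 3 animals beside them. At Fam169a the B6 parents sit at 41.1 to 55.1% and the C3 parents at 3.86 to 9.63%, and at Acss3 the dams sit at 29.2 to 59.6% and the sires at 9.40 to 22.6%.

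The levels of the F1 animals did not enter the difference between sires and dams, although they entered the choice of windows and the common estimate of spread. At the 13 windows with dams higher, medians were 17.6% in sires, 41.8% in dams, 16.8% in sons and 33.0% in daughters, and daughters were above sons in 13 of 13, 11 of them (84.6%) past the adjusted p. At the 865 other called windows with 5 to 9 CpGs and dams higher, daughters were above sons in 863 (99.8%), and 802 (92.7%) passed. At the 160 windows with dams higher by the adjusted p alone, 157 (98.1%) had daughters above sons and 59 (36.9%) passed. At the 262 with sires higher, medians were 27.8% in sires, 16.6% in dams, 25.5% in sons and 23.1% in daughters, sons were above daughters in 171 (65.3%), and 11 (4.2%) passed. By the adjusted p alone the other windows with 5 to 9 CpGs gave 95.4 and 41.3% where dams were higher and 69.6 and 5.36% where sires were, so the low windows were near the background in this respect.

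Between sons and daughters themselves, 2 low windows were called (0.00965%), against 0.0510% of all tested windows and 0.0565% of the others. Daughters were higher in both, which were the Yap1 window and an intronic window nearest to Ypel2 at chr11:86778501-86779000. In the latter, named after its values were seen, sons were at 13.4 to 28.0% and daughters at 34.1 to 45.2%, a difference of -20.1 points (limma, adjusted p = 5.11e-05). Leaving out single animals gave 0 to 5 calls between sons and daughters. Without the minimum of 20 points 156 windows (0.753%) passed, against 0.343% of all tested and 0.357% of the others. Over distal windows the share was 0.116% under 10%, 2.04% at 30 to 50%, 1.36% at 50 to 70% and 0.481% at 70 to 80%. It too peaked above the chosen interval. Among the 156 low windows daughters were higher in 141 and sons in 15, with backgrounds of 0.292 and 0.0518%. The count of 156 fell to 94 without B6C3F1 daughter 1, to 100 without C3B6F1 son 3, to 101 without C3B6F1 daughter 3 and to 98 with counts thinned to the shallowest animal.

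Dams that had borne a litter and virgin F1 daughters, 6 each, gave no called low window, against 0.0198% of all tested windows and 0.0218% of the others. No low window reached 20 points, the largest difference being 19.8, so no test could have called one. Leaving out single animals, which changes the differences, gave 0 to 2 calls. Under an unadjusted limma p of 0.05 were 3363 low windows (16.2%), against 7.94% of all tested windows and 8.18% of the others. By the adjusted p alone 117 passed (0.565%, against 0.181% of all tested and 0.171% of the others). Over distal windows the share was 0.204% under 10%, 1.04% at 30 to 50%, 0.588% at 50 to 70% and 0.229% at 70 to 80%. Among the 117 low windows daughters were higher in 110 and dams in 7, with backgrounds of 0.149 and 0.0318%. The count of 117 fell to 62 without B6 dam 2, to 65, 76 and 72 without B6C3F1 daughter 1, 2 or 3, to 72 without C3B6F1 daughter 3 and to 70 with thinned counts. At the 110, medians were 15.2% in dams, 26.8% in daughters, 22.9% in sires and 23.7% in sons, with a median dam minus daughter difference of -10.9 points. The strain difference touched 42 of the 117, and without those the counts were 73 and 2. At 1 of the 117 windows the difference in points and the log2 ratio had opposite signs.

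Examples from this set were named after their values were seen. In an intronic window nearest to Ppap2b, a lipid phosphatase gene, at chr4:104857001-104857500, dams were at 8.64 to 20.7%, with a median of 12.8%, and daughters at 23.9 to 54.3%, with a median of 29.7%, without overlap. The difference was -18.9 points with a log2 ratio of -1.58 ± 0.25 (limma, adjusted p = 0.00121), and sires and sons, at 26.5% ± 5.02 and 25.9% ± 4.88, were 0.571 points apart (adjusted p = 0.994). The difference between these differences, -19.4 points, did not pass (limma, adjusted p = 0.127). In an intronic window nearest to Col5a3, a fibrillar collagen gene, at chr9:20609501-20610000, the difference was -18.7 points (adjusted p = 0.000323), and B6 exceeded C3 parents by 8.78 points (adjusted p = 0.0231). At Sae1 and Iffo2, which were also called between the strains, dams minus daughters were -18.9 and 19.8 points. At Iffo2, C3 depth was 7.60 counts per CpG against 36.9 in B6.

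Sires and sons, which differ in hybrid genotype and not in parity, gave no called low window, against 0.00227% of all tested windows and 0.000973% of the others. Here too no low window reached 20 points, the largest difference being 14.35, so no test could have called one. Under an unadjusted limma p of 0.05 were 1600 low windows (7.72%), close to the 6.26% of all tested windows and the 6.57% of the others. By the adjusted p alone 3 passed (0.0145%, against 0.0143% of all tested). The difference between the dam and daughter contrast and the sire and son contrast was tested as an interaction and was called at 1 low window (0.00483%, against 0.0185% of all tested and 0.0216% of the others). Without the 20 points it passed at 14 (0.0676%, against 0.0428% of all tested and 0.0447% of the others). That count was unstable, at 5 to 18 when single animals were left out. The parity comparisons share animals with the sire and dam comparison, so their values are set side by side and not as separate evidence.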

How the data were processed

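Liver DNA of 24 mice was read by whole-genome bisulfite sequencing. The authors deposited counts of methylated and unmethylated reads per CpG and animal, with the strands together, made by quality filtering, alignment to mm9 with Bismark 0.7.8 over Bowtie 0.12.8, removal of duplicates and merging of an animal's libraries. They kept CpGs present in mm9 and in both local strain assemblies, and they also deposited the SNV list. Here counts were summed in fixed windows of 500 bp, and 1456902 autosomal windows with at least 5 CpGs and 30 counts in each animal were tested. Levels are methylated counts over all counts. limma 3.58.1 in R 4.3.3 was fitted to log2 ratios with a pseudocount of 1 and 8 group means, with trend and robust moderation, and p-values were adjusted by Benjamini-Hochberg over all tested windows. Estimates ± SE are log2 ratios. The fit was tested on simulated data. The p-values set a group difference against the moderated spread between animals within groups. Counts are reads per CpG, summed over the CpGs of a window. Counting error therefore excludes PCR effects and the covering of several CpGs by 1 read. Genes came from the GENCODE annotation and sequence from the mouse reference genome, both on mm9. Windows and gene lists were chosen with earlier results of these data known. The windows named were the 3 with the largest difference per direction among those called without overlap between groups, and others are said to have been chosen later. Chromosome X and FOXA1 samples were not analysed here.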

Additional observations from a re-analysis of the deposited data

Results flagged for a closer look

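The window at chr13:35708501-35709000, intergenic and 42731 bp upstream of Cdyl, a chromodomain gene, was the one low window at which the dam and daughter difference departed from the sire and son difference both by the adjusted p of that test and by at least 20 points. By the adjusted p alone the test passed at 14 low windows. Sires ran from 24 through a median of 33.2 to 35.3%, dams from 13.2 through 19 to 23.2%, sons from 17.8 through 21.5 to 24.6% and daughters from 23.1 through 29.1 to 37.7%. Among the parents the males were higher without overlap, and among the hybrids the females were higher with a small overlap. Dams were 11.8 points below daughters and sires were 9.44 points above sons, so that the differences were -21.2 points apart, with a log2 ratio of -1.62 ± 0.27 (limma, adjusted p = 0.00616). No SNV lay in the window, and depth was 31.9 counts per CpG in B6 and 29.9 in C3. The lowest count of an animal there was 90, so the window was not tested where at least 100 counts were required. Without 1 animal in turn it passed the adjusted p in 24 of 24 refits, at 0.00124 to 0.0197, and stayed past 20 points in 22, with differences from -23.4 to -19.5 points. A check for an animal far from the others of its group did not include this window or others named after their values were seen. It covered 26 groups of 6 animals, from the windows named by size and from the mean levels, and found none.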

How the results depend on the processing

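Counts of called windows hardly depended on the test, because the minimum of 20 points decided them, except for the interaction, where 1 of 2 windows past 20 points also passed the adjusted p. With a pseudocount of 5, an arcsine scale, a quasi-binomial model or the replicate block, the calls stayed at 182 for strain, 14 for sires and dams, 0 for dams and daughters, 0 for sires and sons, 2 for sons and daughters and 1 for the interaction, and for the first 5 this says little about stability. With at least 100 counts in each animal they were 61, 9 and 0 for strain, sires and dams, and interaction. Fewer windows were tested there, so these lower counts are not a loss of calls among the same windows. With a minimum of 10 points, in the order of the 6 comparisons above, they were 1219, 285, 76, 1, 130 and 14, and with no minimum 2815, 422, 117, 3, 156 and 14. The counts at 10 points are not set against other windows here. Counts thinned to the shallowest animal gave 1 for dams and daughters, 5 for sons and daughters and 2 for the interaction, and levels taken over unused animals gave 1 for dams and daughters. Added after the data were seen, windows with balanced strain depth gave 71 and windows without an SNV 59 strain calls. Leaving out each animal in turn gave 176 to 185 strain calls, 14 to 17, 0 to 2, 0 to 0, 0 to 5 and 1 to 5. The cause of these shifts was not tested beyond the settings themselves.

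By the adjusted p alone, strain gave 1714 windows with at least 100 counts, where fewer windows were tested, and 1537 without an SNV. Dams and daughters gave 70 and sons and daughters 98 with thinned counts. Sires and sons gave 1 with at least 100 counts, on the arcsine scale and in the quasi-binomial model. The interaction gave 22 with a pseudocount of 5 and on the arcsine scale, 44 in the quasi-binomial model and 7 with thinned counts. Leaving out single animals gave 2302 to 2900 for strain, 318 to 436 for sires and dams, 62 to 126 for dams and daughters, 2 to 6 for sires and sons, 94 to 164 for sons and daughters and 5 to 18 for the interaction. Dams and daughters were lowest without B6 dam 2 (62) and B6C3F1 daughter 1 (65), and sons and daughters without B6C3F1 daughter 1 (94). The 10 windows named by size kept direction and call in all 315 refits.

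Replicate numbers did not meet the bar for pairing, a correlation over 0.1 in every pair: deviations of same-numbered animals of other groups correlated between -0.00880 and 0.0649 over 84 pairs. A weak sharing by number was present, with a median of 0.00584 against -0.00209 for other numbers, and 20 of 24 animals were closest to one of their own number. With the replicate block the adjusted p alone gave 2858, 409, 117, 3, 158 and 12.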
